A study of Carassius gibelio with 4 samples.

Results

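Among the liver transcripts of gibel carp (Carassius gibelio), 140 gene IDs stood at least 2-fold higher on a rapeseed meal diet than on a fishmeal diet in strain F while strain A stayed within 2-fold. They were chosen from 56011 gene IDs by 4 conditions on the deposited values, read here as FPKM (sequenced fragments scaled to transcript length and to library size). The mean over the 4 libraries had to be 100 to under 1000 FPKM, with a value above 0 in strain F on fishmeal. The log2(value + 1) of strain F had to be at least 1 higher on rapeseed, and that of strain A had to differ between the diets by less than 1 in either direction. The data were 1 library each of strain F on rapeseed, strain F on fishmeal, strain A on rapeseed and strain A on fishmeal, all from liver taken 8 hours after the last meal. The strains are named A and F in the labels with no origin, and neither the number of fish per library nor their age is stated. With 1 library per group no difference below has a replicate check, so no p-value is given and "higher" describes the libraries alone.

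Rapeseed meal is a plant protein source that replaces fishmeal in feeds for farmed cyprinids. It differs from fishmeal in amino acid balance, fibre and minerals, and brings glucosinolates and phytate. The liver takes up absorbed amino acids, sugars and lipids, makes most plasma proteins and clears foreign compounds. Gibel carp is a polyploid fish whose strains are largely propagated as clones, so closely similar gene copies are common in its transcriptome. Reads of such copies can be split between IDs when they are counted.

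The IDs carry no gene names. They are written as c and g, each with a number, and 0 of the 56011 matched the gene table of the carGib1.2-hapl.c assembly. No function can therefore be given for any ID, the liver label could not be checked against marker genes, and no sequence can be shown. IDs that share a c number are treated here as parts of 1 assembly component, as the naming implies.

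The values of a library share a scale factor that bears directly on these 140 IDs. The factor, read from the step between low values, was 1.07 for strain F on rapeseed and 0.705 for strain F on fishmeal. It was 1.34 for strain A on rapeseed and 0.993 for strain A on fishmeal. For an ID well above the pseudocount the factors alone make the strain F rapeseed value 1.52 times as large relative to fishmeal, which is 0.60 on the log2 scale. In strain A they contribute 0.43. The labels do not say what set them. The strain F fishmeal library was also shallow: it listed 36996 IDs at 0, against 8172 in strain F on rapeseed, 11105 in strain A on rapeseed and 8810 in strain A on fishmeal. By its low values it held about 1 read for every 54.7 in the others, an estimate from 49 IDs.

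The selection ran as follows. The level class of 100 to under 1000 FPKM held 774 IDs, and in 204 of them (26.4%) strain F was at least 2-fold higher on rapeseed. Over all 35517 IDs of mean level 1 or more that share was 40.8%. Strain A was also at least 2-fold higher in 60 of the 204 (14.6% of the class were), and at least 2-fold lower in 1 (2.45% of the class were). Of the 143 with strain A within 2-fold, 3 were listed at 0 in strain F on fishmeal and so fell outside the rule. The 140 that remained were 18.1% of the class. The opposite pattern, at least 2-fold lower on rapeseed in strain F with strain A within 2-fold, was met by 10 IDs, and 24 of the class (3.1%) were 2-fold lower in strain F whatever strain A did. The mirror pattern, higher in strain A with strain F within 2-fold, was met by 44.

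The 3 IDs left out for a listed 0 had sizeable levels elsewhere. c17913_g1 stood at 159 FPKM in strain F on rapeseed, 129 in strain A on rapeseed and 127 in strain A on fishmeal. c17687_g1 stood at 119, 182 and 163 FPKM in the same libraries. Both had a listed 0 in strain F on fishmeal alone. c29712_g2 had 294 FPKM in strain F on rapeseed, a listed 0 in strain F on fishmeal, 68.5 FPKM in strain A on rapeseed and 43.4 in strain A on fishmeal.

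Most of the 140 lay in the lower part of the range of the level class and near the fold limit. The mean level was under 200 FPKM in 79 and 500 or more in 22. These counts were not set against the class, which was itself low in its range. Its medians were 220.1 FPKM (strain F rapeseed), 142.4 (strain F fishmeal), 242.2 (strain A rapeseed) and 187.1 (strain A fishmeal). In the 140 the strain F values ran from 11.6 to 1288 FPKM on rapeseed with a median of 219.9. On fishmeal they ran from 1.68 to 599 FPKM with a median of 85.7. The strain A values of the 140 had medians of 229 FPKM on rapeseed and 190.3 on fishmeal. Of the 4 medians of the 140, that of strain F on fishmeal was the low one, as the plot of levels by library shows.

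**Figure D1:**
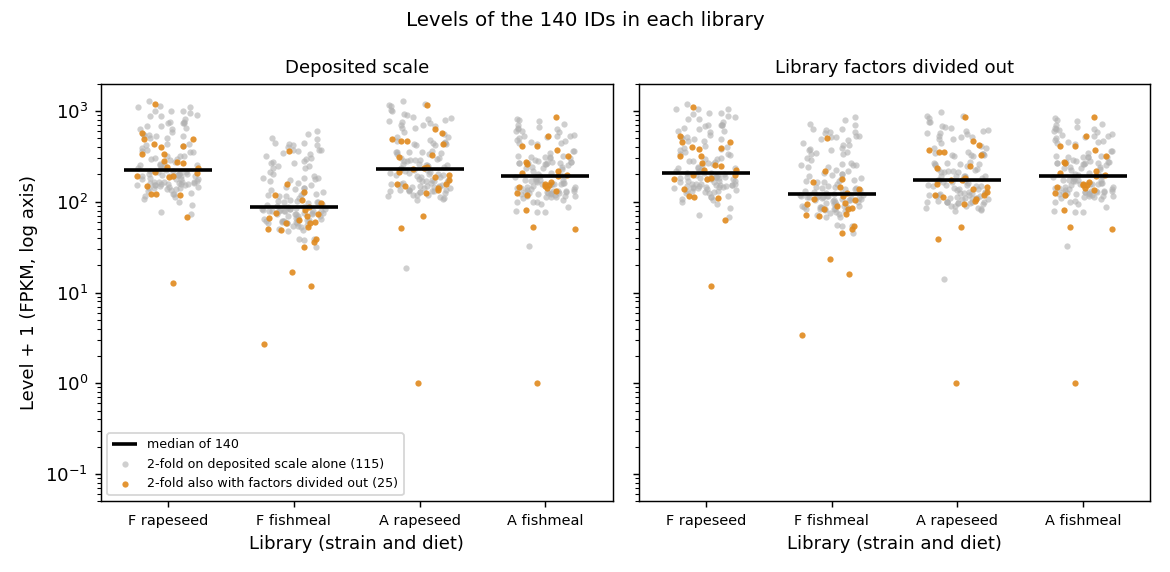
Level plus 1 in FPKM (log axis) of the 140 IDs in each of the 4 libraries, on the deposited scale (left) and with the library factors divided out (right). Points are IDs, bars are medians over the 140, and orange marks the 25 IDs that stay 2-fold higher in strain F on rapeseed with the factors divided out. The deposited medians were 219.9 (strain F rapeseed), 85.7 (strain F fishmeal), 229 (strain A rapeseed) and 190.3 FPKM (strain A fishmeal), and the same medians with factors divided out were 206, 122, 171 and 192.

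The log2 difference of rapeseed over fishmeal within strain F, which chose the IDs, ran from 1.004 to 3.16 with a median of 1.24. It was at least 1.5 in 30 of the 140 and at least 2, a 4-fold difference, in 10. In strain A the log2 fold ran from -0.98 to 0.99 with a median of 0.35. It was positive in 116 IDs, negative in 23 and 0 in 1 (class 614 of 774 positive). With the library factors divided out it was positive in 56 and negative in 83 (class 311 and 460). As deposited, the medians over the whole class of 774 were 0.68 in strain F and 0.33 in strain A. The 140 thus stood 2-fold higher in strain F against a class that was itself displaced upward, and their strain A median was close to that of the class.

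The values nearest each limit show how close the selection is. c35498_g1, just inside the strain F limit, stood at 211 FPKM on rapeseed and 105 on fishmeal (log2 fold 1.004). c35228_g3, just outside it, stood at 166 FPKM on rapeseed and 82.8 on fishmeal (log2 fold 0.998). At the upper strain A limit, c26264_g1 lay inside with 156 FPKM on rapeseed and 77.9 on fishmeal in strain A, and c34077_g1 lay outside with 510.3 and 252.9 FPKM. The folds on the 2 sides of these limits are nearly equal.

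At the lower strain A limit, c36332_g2 lay inside with 145 FPKM on rapeseed and 285 on fishmeal in strain A, and c31605_g1 lay outside with 55.2 and 117 FPKM. By mean level, c32286_g1 lay just inside at 102 FPKM and c36528_g2 just outside at 99.3 FPKM. At the upper end the 2 IDs with the highest means were c31415_g2 at 957 and c38731_g1 at 919 FPKM, and the nearest ID above was c37145_g1 at 1292 FPKM. c31415_g2 had 1288 FPKM in strain F on rapeseed, 599 in strain F on fishmeal, 1292 in strain A on rapeseed and 648 in strain A on fishmeal. Its strains were close on each diet, and its log2 folds of 1.10 in strain F and 0.99 in strain A differ by 0.11.

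A fold above the limit in strain F and below it in strain A is not itself a difference between the strains. The strain F log2 fold minus the strain A log2 fold ran from 0.02 to 3.16 over the 140, with a median of 0.97. It was under 0.5 in 21 IDs and at least 1 in 66. Over the class of 774, 117 IDs (15.1%) had a difference of at least 1. With the library factors divided out it was at least 1 in 51 of the 140, and in 87 of the class (11.2%). The rule set limits on both folds, so the selection favoured large differences in the 140. The class counts also include the 140, and the shares are a description. No test of the strain F fold minus the strain A fold is possible, since 1 library per combination of strain and diet leaves no residual.

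Once each library was divided by its factor, 25 of the 140 (17.9%) still stood 2-fold or more above fishmeal in strain F on rapeseed, and 115 did not. Over the class, 64 of 774 (8.27%) were 2-fold higher on that scale and 40 (5.17%) were 2-fold lower. Over the 35517 IDs 36.4% were 2-fold higher. The 140 were chosen among the 204 class IDs that were 2-fold higher as deposited, and the division only lowers these folds. The selection therefore favoured a larger share in the 140 than in the class. Outside the 140, 64 class IDs were 2-fold higher as deposited, and 39 of them stayed so with the factors divided out. The class median log2 fold was then 0.08 in strain F and -0.09 in strain A, close to 0 in both. The 140 had a median of 0.64 in strain F and of -0.063 in strain A. All 140 strain F folds were positive, which the selection fixed beforehand. Each was at least 1 as deposited, and the division takes away about 0.60. In the class 436 of 774 were positive. For the 115, log2 folds in strain F lay between 0.41 and 0.99, a range bounded by the same rule. All 25 also stayed within 2-fold in strain A.

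The whole rule applied again with the factors divided out, level class included, found 28 IDs, of which 23 were among the 140. The opposite pattern, lower on rapeseed in strain F alone, was met by 22 IDs. The counts of higher and lower IDs were thus 140 and 10 on the deposited scale, and 28 and 22 with the factors divided out. With the level class left as deposited the rule found 30 IDs (3.88%). Centring each library on the class median in place of the factors gave the same 25 of the 140. In 6 of the 140, strain A on rapeseed stood at least 2-fold below fishmeal once the factors were divided out (class 39 of 774, 5.04%).

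**Figure D2:**
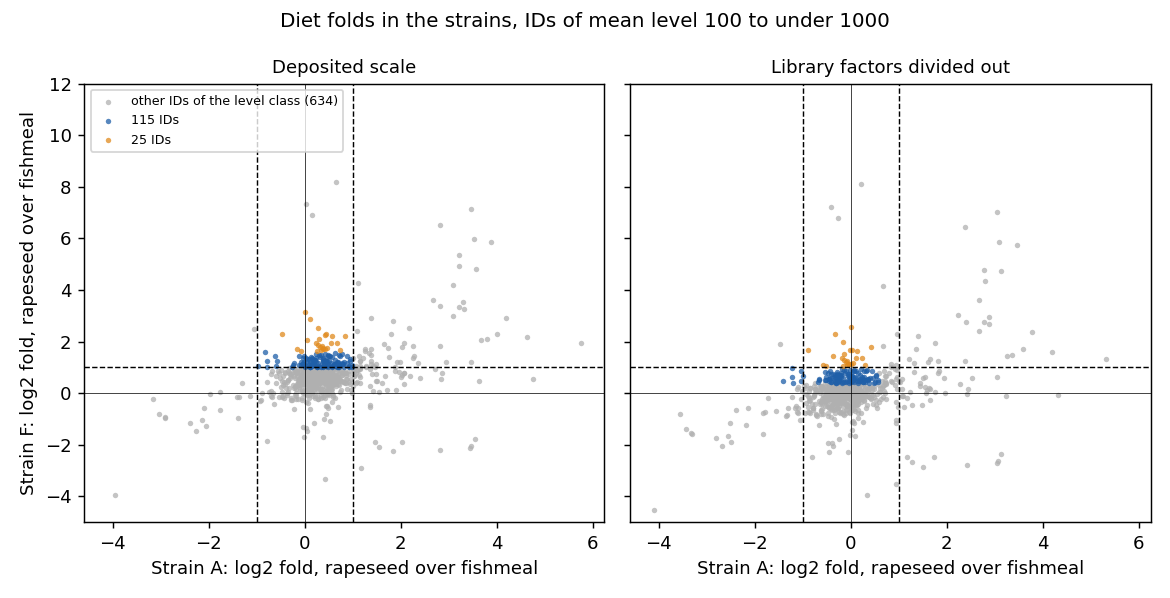
Diet log2 fold (rapeseed over fishmeal) of strain F (vertical) against strain A (horizontal) for the 774 IDs of mean level 100 to under 1000 FPKM, on the deposited scale (left) and with the library factors divided out (right). Dashed lines mark 2-fold limits, blue and orange points are the 140 IDs, and the 25 orange points lie above the limit in both panels while the 115 blue points lie between 0.41 and 0.99 on the right.

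The 2 IDs with the largest strain F folds after the division were c29712_g1 and c36374_g2, the only 2 of the 140 that were then still at least 4-fold higher. c29712_g1 stood at 567 FPKM on rapeseed and 62.5 on fishmeal in strain F and was listed at 0 on both diets in strain A. Its log2 fold in strain F was 3.16 as deposited and 2.57 with factors divided out. It meets the strain A condition with both strain A values at 0. c36374_g2 stood at 122 FPKM on rapeseed and 15.8 on fishmeal in strain F, against 156 on rapeseed and 145 on fishmeal in strain A. Here the strain F fishmeal library alone was low, and the log2 fold in strain F was 2.88 as deposited and 2.30 with factors divided out.

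Where strain A stood on both diets separates the IDs further. On the deposited scale both strain A libraries lay within 2-fold of strain F on rapeseed, and not both within 2-fold of strain F on fishmeal, in 91 of the 140 (65.0%). The converse, strain A near strain F on fishmeal alone, held for 11 (7.86%). Both strain A libraries lay within 2-fold of both strain F libraries in 22 (15.7%). The other 16 (11.4%) count as near neither: no strain F library had both strain A libraries within 2-fold. In the class the same shares were 28.8% near strain F rapeseed alone, 6.20% near strain F fishmeal alone, 44.8% both and 20.2% neither. On the mean of its log2 levels strain A was nearer to strain F on rapeseed in 117 of the 140 (83.6%), and in 547 of the 774 of the class (70.7%).

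By the order of the deposited levels, both strain A levels lay between the strain F levels in 61 of the 140 (43.6%, class 17.7%). They lay above both in 33 (23.6%, class 30.7%) and below both in 6 (4.29%, class 9.04%), and the other 40 had another order. Strain F on fishmeal lay below strain A on fishmeal in 133 of 140, against 590 of 774 in the class (76.2%). Strain F on rapeseed lay below strain A on rapeseed in 69 of 140, against 477 of 774 in the class. These counts are a description, since the strain F fishmeal value had a part in choosing the IDs.

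The position of strain A depended on the scale. With the factors divided out, both strain A libraries lay within 2-fold of both strain F libraries in 93 of the 140 (66.4%). They lay near strain F rapeseed alone in 22 (15.7%, class 9.56%), near strain F fishmeal alone in 10 (7.14%, class 5.43%) and near neither in 15 (10.7%, class 18.6%). The class share within 2-fold of both was also 66.4% (514 of 774). By order, strain A then lay between the strain F levels in 41 (29.3%, class 11.8%), above both in 33 (23.6%, class 19.0%) and below both in 23 (16.4%, class 28.7%). Strain F on fishmeal then lay below strain A in 108 of the 140 (class 396 of 774), and strain F on rapeseed below strain A in 40 (class 276 of 774). Strain A was then nearer to strain F on rapeseed in 76 of the 140 (54.3%), against 447 of the class (57.8%).

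The 25 IDs that stayed 2-fold divide by this position, with factors divided out, into 10 with strain A near strain F on rapeseed alone, 4 near strain F on fishmeal alone, 6 near both and 5 near neither. Levels of these 25 are given here with the factors divided out. IDs named from these classes were chosen after their values were seen.

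In the 10, strain F had a median of 178 FPKM on rapeseed (109 to 401) and 70.4 on fishmeal (22.4 to 179). Strain A had medians of 173 FPKM on rapeseed (106 to 468) and 174 on fishmeal (117 to 533). Strain F on fishmeal was the low library of these 10, which the definition of the class fixed beforehand. The other 3 medians lay between 173 and 178 FPKM. c26467_g2, the member of the 10 with the largest strain F fold after c36374_g2, had 314 FPKM in strain F on rapeseed, 96.8 in strain F on fishmeal, 327 in strain A on rapeseed and 322 in strain A on fishmeal.

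In the 4, c38421_g1, c33231_g1, c37500_g1 and c33616_g1, strain F on rapeseed was the highest library, which the definition of the class fixed beforehand. A strain A library still lay just within 2-fold of it in c33231_g1 and c37500_g1 (fishmeal) and in c33616_g1 (rapeseed). c38421_g1 had 225 FPKM in strain F on rapeseed, 70.2 in strain F on fishmeal, 51.4 in strain A on rapeseed and 51.7 in strain A on fishmeal. c33231_g1 had 387 FPKM in strain F on rapeseed, 136 in strain F on fishmeal, 180.5 in strain A on rapeseed and 198 in strain A on fishmeal. In both, strain F on rapeseed was high and the other 3 libraries lay within 2-fold of strain F on fishmeal, as the class requires. In strain F on rapeseed c37500_g1 had 248 FPKM and c33616_g1 had 197, and they had 80.6 to 124 FPKM in the other 3 libraries.

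The 5 near neither differ between the strains on at least 1 diet by more than 2-fold. c20953_g1 was higher in strain F, at 456 FPKM on rapeseed and 165 on fishmeal, against 38.1 on rapeseed and 49.4 on fishmeal in strain A. c33907_g1 was lower in strain F, at 10.85 FPKM on rapeseed and 2.38 on fishmeal in strain F, against 352 on rapeseed and 263 on fishmeal in strain A. c33007_g2 had the same order, with 62.6 FPKM on rapeseed and 15.1 on fishmeal in strain F, against 247 on rapeseed and 275 on fishmeal in strain A. c29712_g1 had 531 FPKM on rapeseed and 88.7 on fishmeal in strain F, against a listed 0 on both diets in strain A. c36217_g1 had 264 FPKM on rapeseed and 81.2 on fishmeal in strain F, against 110.5 on rapeseed and 207 on fishmeal in strain A. Here strain A on each diet was within 2-fold of strain F on the other diet, and near neither means only that no strain F library had both strain A libraries near.

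The strain contrasts share libraries with the strain F diet contrast and are given as counts beside the class, on the deposited scale. On fishmeal, 66 of the 140 stood at least 2-fold lower in strain F than in strain A (class 151 of 774, 19.5%) and 3 at least 2-fold higher (class 48 of 774, 6.20%). On rapeseed, where both libraries were deep, 9 stood 2-fold lower in strain F (class 78 of 774, 10.1%) and 8 higher (class 44 of 774, 5.68%). The median log2 fold of strain F over strain A was -0.95 on fishmeal and 0.02 on rapeseed, against -0.50 and -0.16 in the class. After the division these medians were -0.46 on fishmeal and 0.34 on rapeseed, against -0.01 and 0.16 in the class. With factors divided out, 27 were lower and 6 higher on fishmeal (class 8.27% and 11.5%), and 3 lower and 15 higher on rapeseed (class 5.81% and 8.66%). The class split on rapeseed moved the same way, with 67 higher and 45 lower after the division and 44 higher and 78 lower as deposited.

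The extreme IDs were the same on both diets. By the fixed rule the IDs highest in strain F over strain A were c29712_g1, listed at 0 in strain A, and c39100_g1. c39100_g1 had 358 FPKM on rapeseed and 118 on fishmeal in strain F, against 17.4 on rapeseed and 31.7 on fishmeal in strain A, with log2 folds of strain F over strain A of 4.29 on rapeseed and 1.87 on fishmeal. The lowest were c33907_g1, with log2 folds of -5.23 on rapeseed and -6.61 on fishmeal, and c33007_g2, with -2.28 and -4.55. Each of these 4 IDs kept the same direction between the strains on both diets and on both scales.

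**Figure D3:**
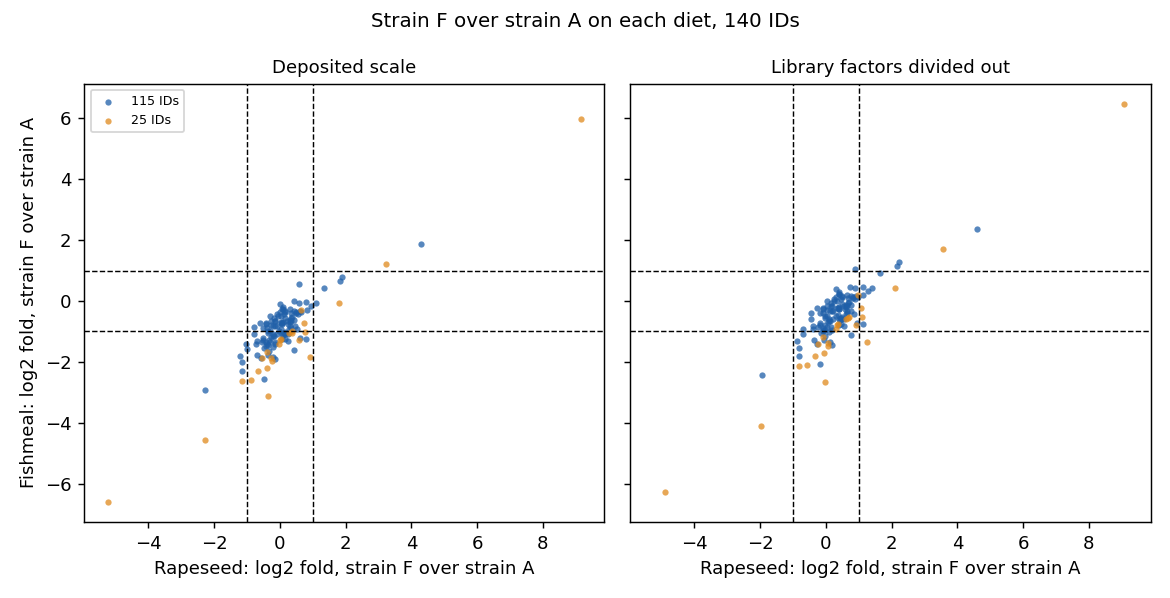
Log2 fold of strain F over strain A on fishmeal (vertical) against rapeseed (horizontal) for the 140 IDs, on the deposited scale (left) and with the library factors divided out (right). Dashed lines mark 2-fold, and orange marks the 25 IDs that stay 2-fold higher on rapeseed in strain F. Most points sit below 0 on the fishmeal axis, where the median was -0.95 as deposited and -0.46 with factors divided out. On the rapeseed axis the median was 0.02 as deposited and 0.34 with factors divided out. The point at the upper right is an ID listed at 0 in strain A, whose position depends on the pseudocount.

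The number of reads behind the strain F fishmeal values is not known for these IDs. A rough worth of 1 read was taken from 1965 IDs. Their lowest value in the other 3 libraries was 0.5 to 3 with factors divided out. There 1 read of that library came to 32.8 deposited FPKM at the median (20.4 and 68.7 FPKM at the 5th and 95th percentiles). It is worth less in longer IDs. The window of 0.5 to 3 bounds this spread, which therefore does not describe IDs of the level class. The depth ratio behind it rests on 49 of the 167 such IDs above 0 in that library. The counts below are of levels, not of reads. Of the 140, 45 (32.1%) had a strain F fishmeal value under 68.7 FPKM, 5 under 32.8 and 3 under 20.4. Among the 25 it was 15, and among the 763 class IDs above 0 in that library it was 94 (12.3%). The rule asks for a strain F fishmeal value that is low relative to rapeseed, and the 25 have the larger folds. The selection therefore favoured low values in both sets, and these shares are a description. The 3 lowest were c33907_g1 at 1.68, c33007_g2 at 10.7 and c36374_g2 at 15.8 FPKM. The part of counting error in the folds was not tested.

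The distance of that library from the others was also read from IDs that were steady elsewhere, and holds counting error and any true difference alike. With factors divided out, 371 class IDs lay within 1.5-fold of each other in the other 3 libraries, and 370 of them were above 0 in strain F on fishmeal. Their log2 distance from the mean of the other 3 had a median of -0.06 and an SD of 0.44 over the 370 IDs (5th to 95th percentile -0.74 to 0.67). It was 2-fold or more in 10 of the 370, 8 below and 2 above. Of the 140, 67 were among the 371, and of the 25, 10 were, against 371 of 774 for the class. The SD is over IDs in a single library, not over replicates.

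The rule did not use the component number. The 140 came from 136 components, and 70 of these had no other ID in the table. In 4 components 2 IDs met the rule. The same counts were not made over the class, so whether the 140 differ from it here is not known. c23228_g1 and c23228_g2 both stayed 2-fold with factors divided out. c23228_g2 had 429 FPKM in strain F on rapeseed, 126 in strain F on fishmeal, 564 in strain A on rapeseed and 408 in strain A on fishmeal. c23228_g1 had 209, 59.5, 465 and 371 FPKM in the same order, so in both IDs strain F on fishmeal was low. Of the other 3 pairs, c36469_g5 stayed 2-fold and c36469_g1 did not, and neither ID of c24708 (g1 and g2) or of c29920 (g2 and g5) did.

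The 66 components with further IDs held 137 IDs outside the 140, of which 43 had a mean of 10 FPKM or more and 19 lay in the level class. Among the 19, strain F was at least 2-fold higher on rapeseed for 2 (c36354_g4 and c29712_g2) and lower for 0, with a median log2 fold of 0.60 there and 0.28 in strain A. With factors divided out the strain F median was 0.00. Among the 634 class IDs outside the 140, which include the 19, the strain F medians were 0.56 as deposited and -0.04 with factors divided out. The deposited strain A median was 0.32 there. As deposited, strain F was at least 2-fold higher on rapeseed in 64 of the 634 (10.1%). c36354_g4 was also higher in strain A, at 556 FPKM on rapeseed and 166 on fishmeal, with 240.1 on rapeseed and 69.9 on fishmeal in strain F.

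In 5 components, singled out after their values were seen, IDs of the same component differed in their levels by strain or diet. In c29712, g1 was listed at 0 in strain A while g2 stood at 68.5 FPKM on rapeseed and 43.4 on fishmeal there. In strain F both were present on rapeseed, g1 at 567 and g2 at 294 FPKM, and on fishmeal g1 alone, at 62.5 FPKM. In c33007, g2 stood at 67.0 FPKM on rapeseed and 10.7 on fishmeal in strain F, where g1 and g9 were listed at 0 on both diets. In strain A all 3 were present, g1 at 481 and 447, g2 at 330 and 273, and g9 at 103 and 99.9 FPKM on rapeseed and fishmeal. Among its IDs of lower level, g3 went the other way, with 40.9 FPKM on rapeseed and 21.9 on fishmeal in strain F, against 4.95 on rapeseed and 7.60 on fishmeal in strain A.

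In c34800, g1 was above 100 FPKM in all 4 libraries, while g2 had 0.075 FPKM on rapeseed and a listed 0 on fishmeal in strain F, against 101 on rapeseed and 94.1 on fishmeal in strain A. In c32160, g3 was low in strain F, at 71.4 FPKM on rapeseed and 30.9 on fishmeal, against 348 and 239 FPKM in strain A. Its component partners g1 and g2 stood at 499 and 479.7 FPKM on rapeseed and 415 and 368 on fishmeal in strain F, against 333 and 349 FPKM on rapeseed and 315 and 259.6 on fishmeal in strain A. In c36419, g1 and g3 were higher in strain F than in strain A. On the diets g3 was near equal in strain F, with 377 FPKM on rapeseed and 371 on fishmeal, where g1 had 394 and 183 FPKM. Both stood at 109 to 116 FPKM in strain A. Whether such IDs are copies that share reads could not be examined without their sequences.

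**Figure D4:**
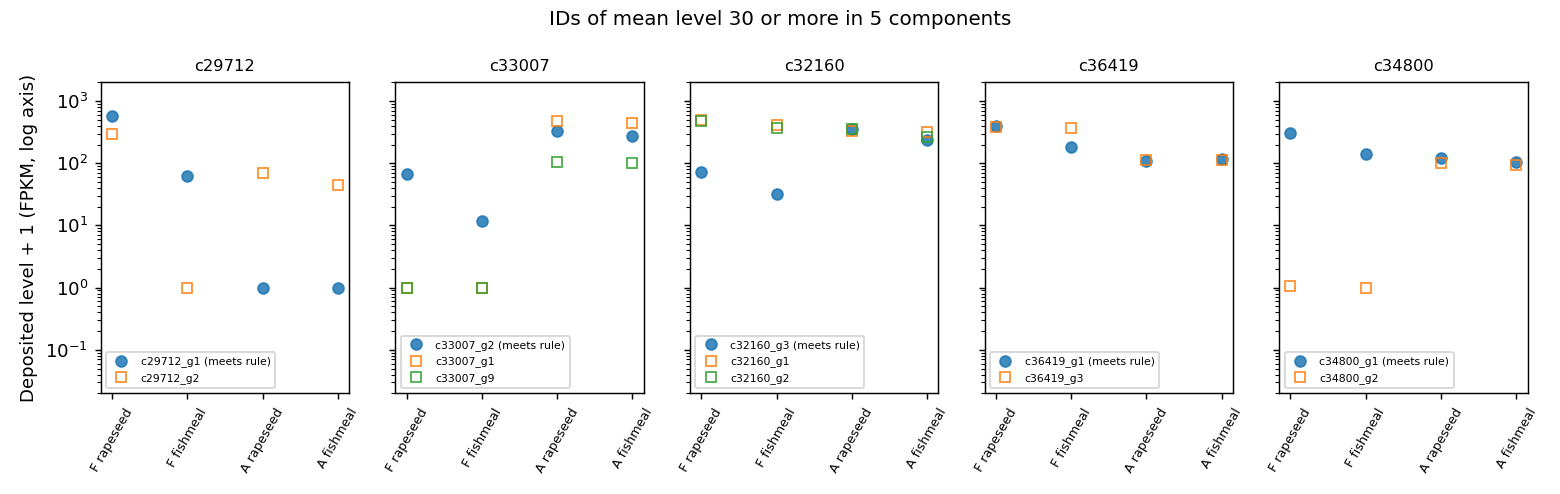
Deposited level plus 1 in FPKM (log axis) of IDs with a mean of 30 FPKM or more in 5 components, by library. Filled circles are IDs among the 140, open squares are other IDs of the component, and a marker at 1 is a listed 0, except c34800_g2 in strain F on rapeseed at 0.075 FPKM. In c33007 and c34800 an ID at 94 to 481 FPKM in strain A is at or near 0 in strain F, and in c29712 an ID at 567 FPKM in strain F on rapeseed is listed at 0 in strain A.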

How the data were processed

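RNA from 4 liver libraries was sequenced on Illumina libraries made after Trizol extraction, per the labels' protocols. The authors deposited 1 table per library with values, read here as FPKM, for 56011 IDs. The unit was inferred from the values: among those under 3, 99.6 to 100% lay within 0.0006 of a multiple of 0.01 times a library factor. This step shows values of 2 decimals that were rescaled, and does not by itself identify FPKM. Per the submitters' processing notes, the tools were Bowtie 1.0.1 and RSEM 1.2.17, with no roles stated. The reference was not given in the sources used. Absolute depth is unknown.

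Folds are on the log2(value + 1) scale, which understates differences of low IDs. Factors were found by a search for the step that best fits low values, and the depth ratio from IDs at 1, 2 or 3 times the lowest value of the other 3 libraries. Both searches were also run on simulated counts with known answers, which does not show that the estimates from these libraries are right. The level class is that of the deposited scale unless stated. IDs named are, among the 140, the 2 with the largest strain F fold with factors divided out, the 2 highest and 2 lowest by strain on each diet, the 2 highest means, those nearest each limit, and pairs in 1 component. That part of the rule allowed 3 components. As 4 tied, all 4 are named. Others are said to be chosen after their values were seen. The IDs, lists and rules were chosen with earlier results of these data known. Alternatives were both rescalings, pseudocounts of 0.1 and 10, other level classes and a minimum in the shallow library. Python 3.11.15, numpy 2.4.6, pandas 2.3.3 and matplotlib 3.10.9 were used.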

Additional observations from a re-analysis of the deposited data

Results flagged for a closer look

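On the deposited scale, 8 of the IDs named in the text had effects of opposite sign, each beyond 0.5 on the log2 scale. These were effects of diet in the strains, or of strain on the diets. How many IDs of the level class meet this was not counted. None of these differences was tested, each rests on 1 library per group, and the diet folds also entered the selection. The strain F diet log2 fold minus that of strain A was 2.42 for c39100_g1 (1.59 in strain F, -0.83 in strain A) and 2.04 for c36332_g2 (1.06 and -0.98). It was 3.56 for c31605_g1 (2.50 and -1.06), the ID just outside the lower strain A limit, and 1.40 for c33007_g3 (0.87 and -0.53). The log2 fold of strain F over strain A on rapeseed minus that on fishmeal is the same quantity, 2.04 for c36332_g2 (0.80 on rapeseed, -1.24 on fishmeal) and 3.56 for c31605_g1 (1.97 and -1.59). It was 2.75 for c36217_g1 (0.93 and -1.82), 1.81 for c33231_g1 (0.78 and -1.03) and 1.47 for c37500_g1 (0.75 and -0.72). For c29712_g2, listed at 0 in strain F on fishmeal, it was 7.56 and depends on the pseudocount. With factors divided out, the strain fold of c37500_g1 on fishmeal (-0.23) falls short of 0.5. So do the strain F diet folds of c33007_g3 (0.29) and c36332_g2 (0.47). IDs that meet the limit on that scale alone include c36469_g5 by its strain folds (0.60 on rapeseed, -0.58 on fishmeal). They also include c36217_g1 by its diet folds (1.69 in strain F, -0.90 in strain A). The diet folds of c36419_g1 (0.504 in strain F, -0.511 in strain A) meet it there as well.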

How the results depend on the processing

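The number of IDs meeting the rule was 140 as deposited. It was 28 with the library factors divided out, 30 (a setting added after seeing the data) when the deposited level class was kept, 27 with libraries centred on the class median, and 270 with the class widened to 50 FPKM. For the 140 IDs with factors divided out, 25 stayed 2-fold higher in strain F, with median log2 folds of 0.64 in strain F and -0.063 in strain A. On that scale 27 were 2-fold lower and 6 higher in strain F than in strain A on fishmeal, 15 higher and 3 lower on rapeseed, and strain A was nearer to strain F on rapeseed in 76. With centred libraries 25 stayed 2-fold, with a median of 0.61 in strain F, 34 were lower and 5 higher in strain F on fishmeal, 10 were higher and 5 lower on rapeseed, and strain A was nearer to strain F on rapeseed in 92. The rescalings act by construction, since they shift every fold of a pair of libraries by nearly the same amount. They do not show which scale is right. With pseudocounts of 0.1 and 10 the rule was met by 144 and 117 IDs, and all other counts stayed within 1.5 times. Without the strain F fishmeal value in the mean level it was met by 160, and with that value above 68.7 FPKM by 95. Of the 19 IDs among the 140 that the fixed rule named, 7 stayed 2-fold with either rescaling, 15 with a pseudocount of 10, and 0 changed sign. IDs named only after their values were seen are not among the 19. A change of sign was not possible under the rescalings, since they take away less than the log2 fold the rule required. No library could be left out, as each group has 1. For the same reason there were no replicates to pair.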
